A study of Homo sapiens with 6 samples.

Results

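The genes described here are 10 marker genes of mature dendritic cells: CCL17 and CCL22, the chemokine ligands of CCR4, the homing receptor CCR7, the co-stimulatory proteins CD80, CD86 and CD40, the maturation markers CD83 and LAMP3, the lectin CD209 and the actin-bundling protein fascin, encoded by FSCN1. They are 10 of 35009 genes in the deposited table. Each was found by its symbol, and each symbol had a row of its own. They were chosen by symbol with their FPKM and log2 changes in the comparison below already known from earlier results of these libraries, so their values are given as a description, without p-values. Where a member is said to be called, it passed the threshold of the fit over all genes, and this too is description. The RNA came from THP-1, an established human line of leukaemic monocytes, turned into macrophages and loaded with ox-LDL, an oxidised lipoprotein whose uptake makes foam cells in the artery wall. The 3 siMCT4 libraries come from cells deficient in MCT4, the exporter of lactate and protons encoded by SLC16A3, and the 3 control libraries from cells without that deficiency, all from the same line and all with ox-LDL. The labels do not say what siRNA, if any, the control cells were given, so an effect of MCT4 loss and an effect of the siRNA itself cannot be told apart. Nor do the labels say whether each library had its own culture, and p-values below measure only the spread between these libraries.

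Dendritic cells mature when they meet microbial products, inflammatory cytokines or CD40 ligand. A maturing cell raises CD80, CD86 and CD40 to stimulate T cells, gains CCR7 and fascin to travel to lymph nodes, and secretes CCL17 and CCL22 to draw in T cells that carry CCR4. Macrophages share parts of this programme: CCL22 and CD209 are also known from macrophages exposed to IL-4, and CD86 and CCR7 from macrophages exposed to microbial products. In bulk RNA, more cells expressing a gene and more of its RNA per cell cannot be told apart.

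Promoters were taken from RefSeq (GRCh38.p14) for the members that have an entry there, which were 5 of the 10: CCL22, CD80, CD83, CD86 and CD209. CD83 and CD86 have 2 start sites each, giving 7 windows of 250 bases before a start site. The windows printed here show the gene with the largest change, CCL22, the windows of CD83 and CD86 that hold the kappaB consensus, the sequence that NF-kB dimers bind, and the window of CD80, whose RNA stayed near the detection limit in both groups. Capitals mark matches to the kappaB consensus on either strand, and matches that overlap form 1 stretch.
CCL22, chr16:57358533-57358782, + strand: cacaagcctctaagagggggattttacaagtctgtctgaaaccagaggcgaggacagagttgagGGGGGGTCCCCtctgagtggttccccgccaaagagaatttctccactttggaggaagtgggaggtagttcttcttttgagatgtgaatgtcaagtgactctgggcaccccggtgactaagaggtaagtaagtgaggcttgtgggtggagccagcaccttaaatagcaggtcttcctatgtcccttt
CD83, chr6:14117522-14117771, + strand: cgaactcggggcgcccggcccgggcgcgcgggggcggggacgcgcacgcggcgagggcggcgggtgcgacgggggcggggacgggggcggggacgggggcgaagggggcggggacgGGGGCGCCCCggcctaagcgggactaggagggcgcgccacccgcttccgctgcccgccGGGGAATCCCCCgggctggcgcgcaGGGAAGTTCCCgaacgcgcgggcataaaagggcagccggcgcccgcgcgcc
CD86, chr3:122077534-122077783, + strand: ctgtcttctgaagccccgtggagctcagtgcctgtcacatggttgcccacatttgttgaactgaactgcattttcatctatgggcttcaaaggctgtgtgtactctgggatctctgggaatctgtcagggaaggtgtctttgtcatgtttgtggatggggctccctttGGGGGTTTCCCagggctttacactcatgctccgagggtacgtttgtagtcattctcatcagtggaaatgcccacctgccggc
CD80, chr3:119559615-119559864, - strand: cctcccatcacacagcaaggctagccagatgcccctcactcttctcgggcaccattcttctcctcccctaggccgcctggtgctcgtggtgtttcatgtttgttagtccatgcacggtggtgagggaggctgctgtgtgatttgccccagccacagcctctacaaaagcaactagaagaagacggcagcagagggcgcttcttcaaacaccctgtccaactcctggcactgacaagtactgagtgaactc
CCL22 held 1 such stretch, at positions -186 to -176 from its start site, CD86 held 1 at -82 to -72, and CD83 held 3 between -134 and -41. The CD80 window, the CD209 window and the other windows of CD83 and CD86 held 0. Of all 35116 promoter windows searched, 9.96% held the consensus. The interferon-stimulated response element, searched on both strands and present in 3.02% of all windows, was found in the CD209 window at -82 to -73, on the opposite strand. The palindromic STAT motif, present in 5.38% of all windows, was found in the other CD83 window at -25 to -16. GAGGAA, the core that PU.1 binds, present in 23.6% of all windows, occurred in the CCL22 window at -136 to -131 and at 2 places in the other CD86 window, and the AP-1 motif TGANTCA, present in 6.57% of all windows, in none of the 7. These matches are letters in a window and do not show that a factor was bound.

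Library totals ran from 61880619 to 69181938 counts. The targeted gene SLC16A3 had 691, 768 and 949 counts in siMCT4 libraries 1, 2 and 3, against 7708, 6428 and 6848 in control libraries 1, 2 and 3. Across all 19944 genes tested, 20.6% were called higher and 20.8% lower in siMCT4, a call being an adjusted p under 0.05. Every adjusted p below is Benjamini-Hochberg adjusted over all tested genes and, unless another setting is named, comes from the quasi-likelihood test of edgeR. On TPM (FPKM rescaled to the same sum in each library) 68.2% of the calls were higher, against 49.8% in the edgeR fit, and the median of all log2 changes stood at 0.14 in place of -0.01. SiMCT4 library 3 stood apart from libraries 1 and 2 in GC-rich genes. In 383 such genes, with a GC content of at least 64% and a log2 CPM above 2, the median over genes of the log2 ratio stood at -0.95, -1.05 and -0.22 in siMCT4 libraries 1, 2 and 3, each set against the mean of the controls. CPM here means counts scaled to a TMM-adjusted library of 1000000.

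Of the 10 members, 8 were called, 7 of them higher and 1 lower, beside 41.4% of all tested genes called in either direction, 20.6% higher and 20.8% lower. The CPM of the groups did not overlap in 9 members, 8 of them higher and 1 lower, beside 55.0% of all tested genes in either direction, 27.2% higher and 27.8% lower. CCL17 and CD80 were not called. The median log2 change of the 10 members was 1.48, against -0.01 over all tested genes. Since the members were chosen with this contrast known, nothing is read from these counts.

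CCL22 was the member with the largest difference. It had 309627, 346388 and 327341 counts in siMCT4 libraries 1, 2 and 3, against 4979, 4792 and 4590 in the controls. The groups were far apart and each was tight: the level was 1594 ± 64.2 FPKM in siMCT4 and 22.7 ± 0.607 FPKM in controls (SD, n = 3 libraries per group, as for all FPKM means below), a ratio of 65.1 in CPM and a log2 change of 6.02 (SE 0.0511). Over 13 alternative settings the log2 change of CCL22 ran from 6.01 to 6.21. This 1 gene took 0.50%, 0.513% and 0.474% of all counts in siMCT4 libraries 1, 2 and 3, against 0.0072%, 0.00727% and 0.00706% in the controls. By mean FPKM it ranked 15 of 19944 tested genes in siMCT4 and 1465 in controls.

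CCL17, the other ligand of CCR4, lies on the same strand of chromosome 16 and did not share this pattern. It had 4, 12 and 13 counts in siMCT4 libraries 1, 2 and 3, against 15, 0 and 9 in the controls. The groups overlapped, and in both the level was close to the detection limit, at 0.208 ± 0.096 FPKM in siMCT4 and 0.167 ± 0.157 FPKM in controls. The summed counts of 29 in siMCT4 and 24 in controls give a ratio of 1.15 with an exact 95% interval of 0.645 to 2.06, which covers counting error only. Within a library, the FPKM of CCL22 was 16589.7, 6335 and 5737 times that of CCL17 in siMCT4 libraries 1, 2 and 3, against 73.1 and 117 in control libraries 1 and 3, while CCL17 was listed at 0 in control library 2.

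**Figure D1:**
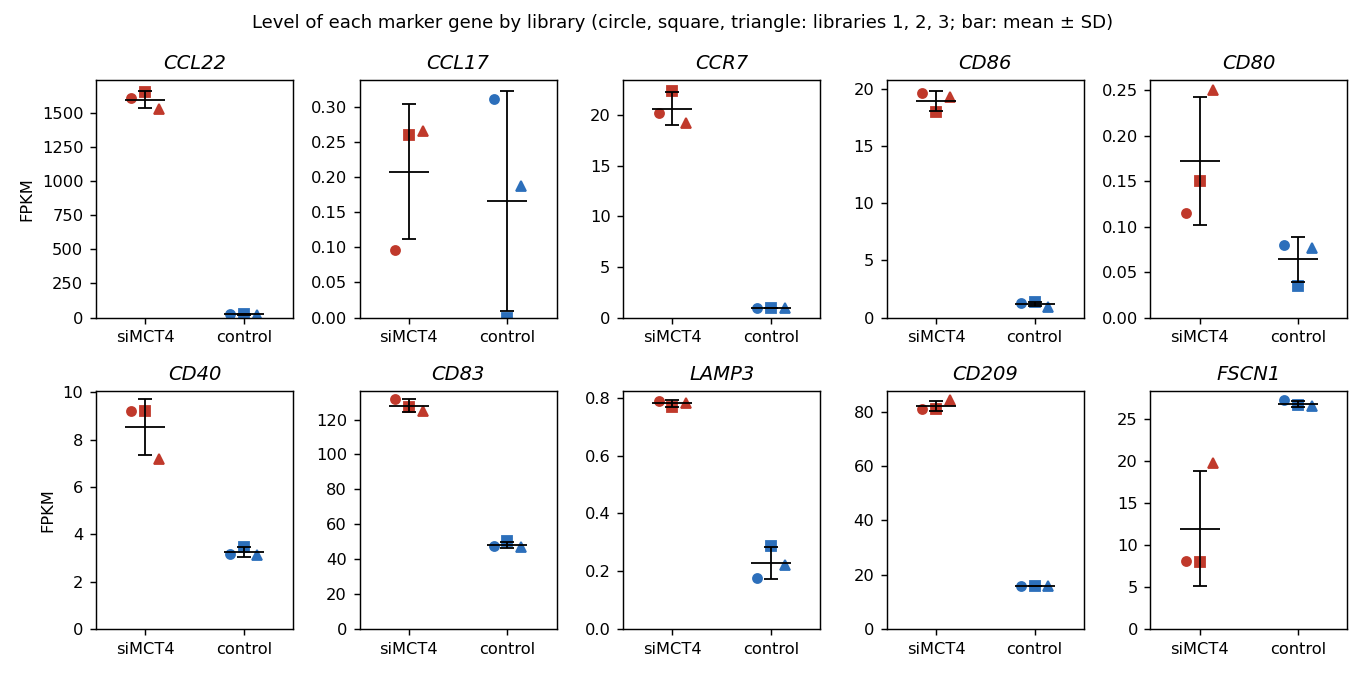
FPKM of the 10 marker genes in each library, each panel with its own linear axis starting at 0. Circles, squares and triangles are libraries 1, 2 and 3 of a group, and bars give the mean ± SD over 3 libraries. The groups overlap in CCL17, FSCN1 is the gene that is lower in siMCT4, and its siMCT4 library 3 lies at 19.8 FPKM, above libraries 1 and 2 at 8.05 and 7.98.

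The chemokine genes stand together, in the order CCL22 (GRCh38 chromosome 16, 57358783 to 57366189), CX3CL1 (57372477 to 57385044) and CCL17 (57404767 to 57416063), all on the + strand. CX3CL1, which encodes the membrane-bound chemokine fractalkine, had 175, 190 and 219 counts in siMCT4 libraries 1, 2 and 3, against 4, 0 and 5 in the controls. It rose by a log2 change of 5.89 (SE 0.567, adjusted p = 0.000175), although its level stayed low at 0.462 ± 0.0315 FPKM in siMCT4, against 0.0063 ± 0.00549 FPKM in controls. CX3CL1 therefore lay between a gene of very high RNA and a gene near the detection limit in siMCT4, and the counts of its groups did not overlap.

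The other neighbours changed by less than CCL22 and CX3CL1. Of the 3 tested genes nearest on either side, RSPRY1 (log2 change 0.71, adjusted p = 8.92e-05) rose. ARL2BP (0.24, adjusted p = 0.027), CIAPIN1 (0.38, adjusted p = 0.0319) and COQ9 (0.38, adjusted p = 0.0225) were also called higher, but each lost its call on leaving out single libraries: ARL2BP without control replicate 2 or 3 or siMCT4 replicate 1 (adjusted p 0.0706 to 0.0953), CIAPIN1 without any 1 of the control libraries or siMCT4 replicate 1 or 2 (0.0663 to 0.0925), and COQ9 without control replicate 2 or 3 or siMCT4 replicate 1 or 2 (0.0575 to 0.0636). PLLP (-0.37, adjusted p = 0.21) and POLR2C (0.08, adjusted p = 0.452) were not called, though POLR2C passed as higher without siMCT4 replicate 3 (0.17, adjusted p = 0.045) and on TPM with limma (0.27, adjusted p = 0.0189). With 5 genes a side, DOK4, an adaptor of receptor tyrosine kinases, rose by 1.62 (adjusted p = 0.0024) and the adhesion receptor gene ADGRG1 fell (-2.2, adjusted p = 7.01e-06). PSME3IP1 (0.18, adjusted p = 0.0307) lost its call without any 1 of the controls (adjusted p 0.0673 to 0.104). It also lost it with a correction for GC content (0.15, adjusted p = 0.0845). The unnamed gene ENSG00000285979 was not called (0.32, adjusted p = 0.0859), but passed as higher with limma on FPKM or TPM (0.25 to 0.44, adjusted p 0.00894 to 0.0194).

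**Figure D2:**
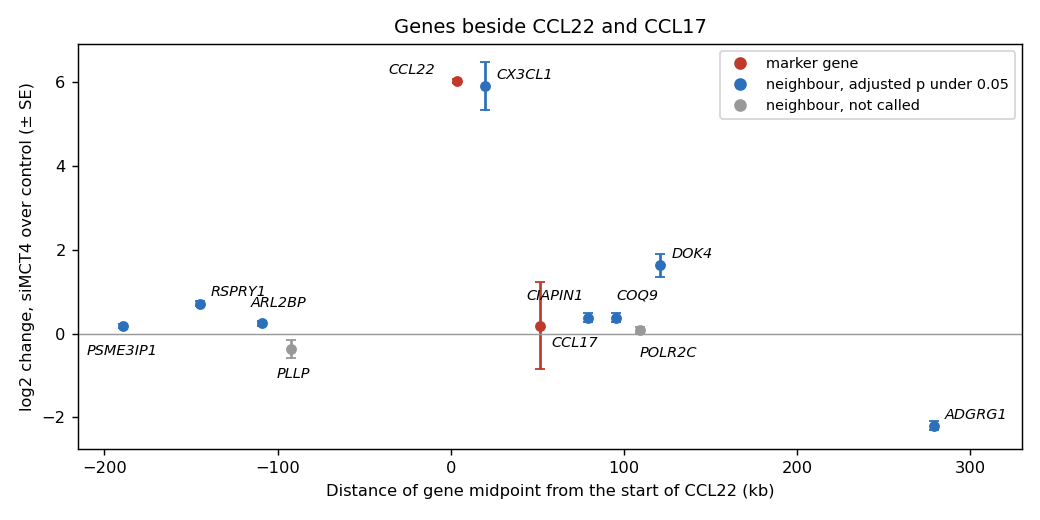
Log2 change (siMCT4 over control, ± SE) of CCL22, CCL17, CX3CL1 between them and up to 5 tested genes with a symbol on either side, by the distance of the gene's midpoint from the start of CCL22 in kb. CCL22 (6.02) and CX3CL1 (5.89) stand above the others, and CCL17 (0.19) lies near 0.

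CCR7, the receptor for CCL19 and CCL21 that guides dendritic cells into lymph vessels, had 3352, 4039 and 3553 counts in siMCT4 libraries 1, 2 and 3, against 172, 168 and 171 in the controls. The groups did not overlap. Its level was 20.6 ± 1.61 FPKM in siMCT4 and 0.937 ± 0.0211 FPKM in controls, a log2 change of 4.34 (SE 0.0875) with a range of 3.48 to 4.42 over the alternatives. Of all tested genes, 91.5% had a lower mean FPKM than CCR7 in siMCT4 and 42.4% in controls.

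The co-stimulatory genes CD86 and CD80 encode related ligands of CD28 and CTLA4 on T cells, and they differed in level. CD86 had 4480, 4450 and 4897 counts in siMCT4 libraries 1, 2 and 3, against 321, 331 and 235 in the controls. Its level was 19.0 ± 0.914 FPKM in siMCT4 and 1.18 ± 0.209 FPKM in controls, a log2 change of 3.89 (SE 0.128; 3.20 to 4.0 over the alternatives). CD80 had 26, 35 and 61 counts in siMCT4 libraries 1, 2 and 3, against 20, 9 and 19 in the controls. In CPM the groups of CD80 did not overlap, but siMCT4 library 3 alone supplied the upper end, and the log2 change of 1.25 (SE 0.469) stood at 0.90 without that library and ran from 0.14 to 1.48 over the alternatives, the lowest of them on log2(FPKM + 1), which compresses low levels. The summed counts of 122 in siMCT4 and 48 in controls give a ratio of 2.41 for CD80, with an exact 95% interval of 1.72 to 3.45. That interval covers counting error only and leaves out the spread between libraries, and CD80 was not called in the fit over all genes. CD80 remained low, at 0.172 ± 0.0703 FPKM in siMCT4 and 0.064 ± 0.025 FPKM in controls. The FPKM of CD86 was 171, 119.7 and 77.2 times that of CD80 in siMCT4 libraries 1, 2 and 3, against 15.5, 38.7 and 12.4 times in the controls.

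CD40, the receptor through which T cells license antigen-presenting cells, had 3426, 3737 and 2968 counts in siMCT4 libraries 1, 2 and 3, against 1334, 1383 and 1255 in the controls. Its level was 8.54 ± 1.19 FPKM in siMCT4 and 3.25 ± 0.198 FPKM in controls, a log2 change of 1.28 (SE 0.108). The groups did not overlap. Library 3 was the lowest of the siMCT4 libraries, with a log2 ratio to the control mean of 1.03, against 1.39 in each of the other two, and without it the change of CD40 was 1.42.

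CD83, a surface protein that stabilises MHC class II and CD86 on the maturing cell, was already abundant in controls. It had 20757, 21841 and 21866 counts in siMCT4 libraries 1, 2 and 3, against 8465, 8444 and 7945 in the controls, which is 128 ± 3.65 FPKM in siMCT4 and 48.1 ± 1.84 FPKM in controls. The log2 change of CD83 was 1.30 (SE 0.0437), with 1.28 to 1.5 over the alternatives. LAMP3, a lysosomal membrane protein that appears late in dendritic cell maturation, had 198, 210 and 219 counts in siMCT4 libraries 1, 2 and 3, against 51, 77 and 60 in the controls. Its groups did not overlap either (log2 change 1.66, SE 0.215), but its level was low in both, at 0.781 ± 0.0118 FPKM in siMCT4 and 0.229 ± 0.056 FPKM in controls.

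CD209, the C-type lectin DC-SIGN of monocyte-derived dendritic cells and some macrophages, had 23642, 25753 and 27364 counts in siMCT4 libraries 1, 2 and 3, against 5265, 4907 and 4932 in the controls. This is 82.1 ± 1.80 FPKM in siMCT4 and 15.8 ± 0.116 FPKM in controls, a log2 change of 2.27 (SE 0.0414; 2.27 to 2.45 over the alternatives). CLEC4M, a close relative beside it with which some reads could be shared, had 4, 0 and 9 counts in siMCT4 libraries and 0 in the controls.

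FSCN1 was the member that was lower in siMCT4, with 1967, 2124 and 5401 counts in siMCT4 libraries 1, 2 and 3, against 7552, 6945 and 6997 in the controls. All siMCT4 values lay below all control values, but library 3 lay much nearer to the controls than the other two: the log2 ratios to the control mean were -1.85, -1.86 and -0.54. The level was 12.0 ± 6.82 FPKM in siMCT4 and 26.8 ± 0.378 FPKM in controls, and the log2 change was -1.27 (SE 0.341). It was -1.83 without siMCT4 replicate 3 and -0.73 with a correction for GC content. The FSCN1 transcript has a GC content of 65.0%, the highest of the 10 members (42.2% to 58.0% in the others), and its libraries were ordered like the GC-rich genes above. How much of the difference in FSCN1 goes with GC content beyond these values was not tested.

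**Figure D3:**
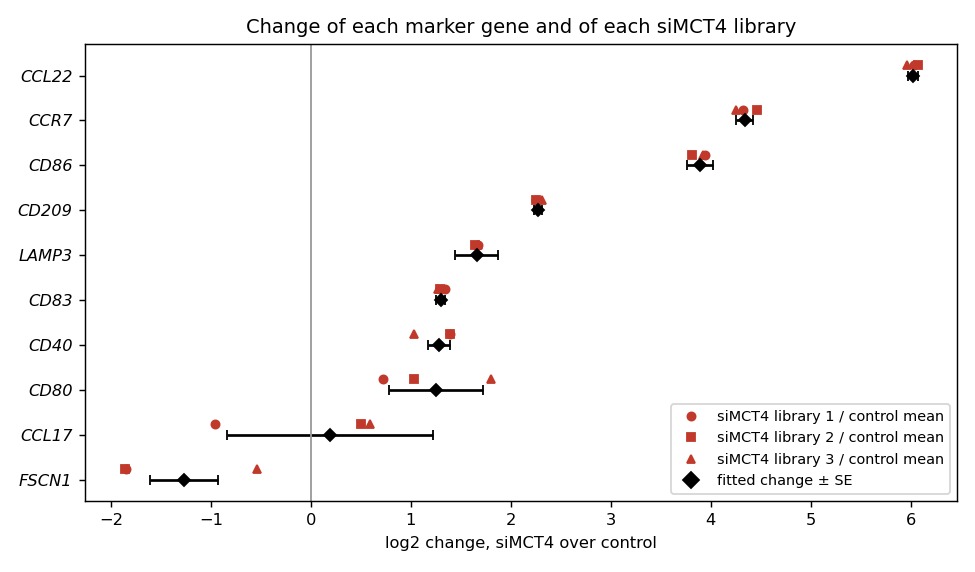
Log2 change of each marker gene (black diamonds: fitted change, siMCT4 over control, ± SE) and log2 ratio of each siMCT4 library to the control mean (red symbols). The 3 libraries lie close together in CCL22, CCR7, CD86, CD209, LAMP3 and CD83, while library 3 stands apart in FSCN1 (-0.54), CD40 (1.03) and CD80 (1.80).

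On the FPKM scale, which is per length, the order of levels in siMCT4 was CCL22, CD83, CD209, CCR7, CD86, FSCN1, CD40, LAMP3, CCL17 and CD80. In it CCR7 (19.2 to 22.4 FPKM) and CD86 (18.0 to 19.7 FPKM) overlapped, as did CCL17 with CD80. FSCN1 (7.98 to 19.8 FPKM) overlapped with CCR7, CD86 and CD40 (7.17 to 9.23 FPKM). In controls the order was CD83, FSCN1, CCL22, CD209, CD40, CD86, CCR7, LAMP3, CCL17 and CD80. There CCL17 overlapped with its neighbours LAMP3 and CD80, and CD86 (0.954 to 1.36 FPKM) lay just above CCR7 (0.913 to 0.951 FPKM). CCR7 and CD86 moved farthest among the ranked genes: 91.5% and 90.6% of tested genes had a lower mean FPKM in siMCT4, against 42.4% and 46.3% in controls. CCL17 and CD80 stayed among the lowest, with 18.4% and 15.9% of tested genes below them in siMCT4 and 17.2% and 7.27% in controls.

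**Figure D4:**
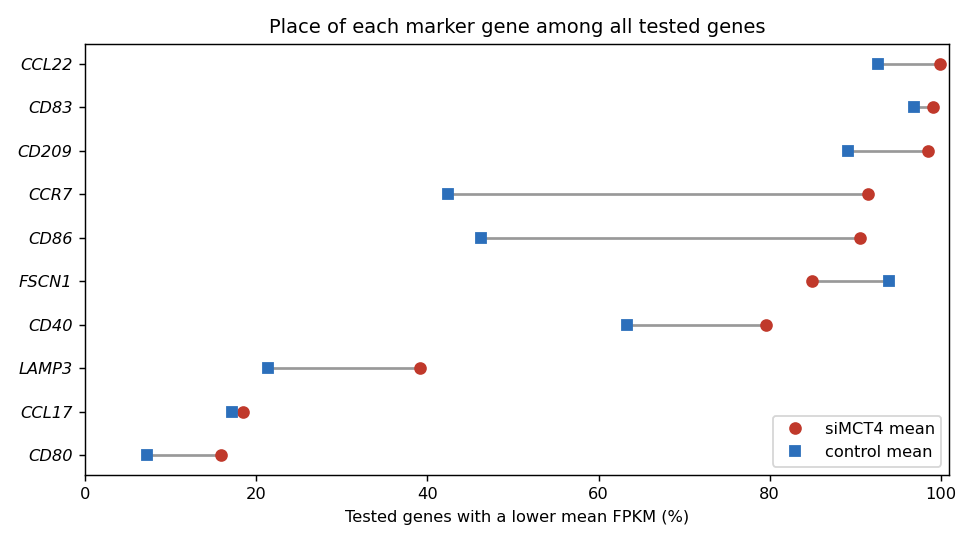
Share of the 19944 tested genes that had a lower mean FPKM than each marker gene, in siMCT4 (red circles) and in controls (blue squares). CCL22 lies at 99.9% in siMCT4 and 92.7% in controls, and FSCN1 is the gene whose siMCT4 point (84.9%) lies left of its control point (93.9%).

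The members were chosen as markers of related function, so shared annotations follow in part from that choice and are given as description. In the table's functional terms, 6 of the 10 (CCR7, CD80, CD83, CD86, CD40 and CD209) carry the term for the external side of the plasma membrane, which 303 genes of the table carry. CD80, CD83 and CD86 carry positive regulation of interleukin-2 production (34 genes of the table), and CCL17, CCL22 and CCR7 carry chemokine-mediated signalling (60 genes). CCL17, CCL22 and CD40 are annotated to the cellular response to tumor necrosis factor (116 genes). Thus genes under 1 term could lie far apart in level and change, as CCL17 and CCL22 did.

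The genes whose profile over the 6 libraries was most like that of CCL22 were found by the root mean square difference of log2(CPM + 1) after each gene's control mean was set to 0. The nearest was IFIT1, an interferon-induced inhibitor of viral translation, at 0.0793, with 18990, 20225 and 19599 counts in siMCT4 libraries 1, 2 and 3, against 236, 266 and 228 in the controls. SCIMP, a transmembrane adaptor of antigen-presenting cells, followed at 0.382, the chemokine gene CCL8 at 0.467, the protease inhibitor gene SERPINB4 at 0.488 and the macrophage elastase gene MMP12 at 0.554. SERPINB4 has a near-identical neighbour with which its reads could be shared. These 4 had 2925 to 7695 counts in siMCT4 libraries and 0 to 34 in the controls. Their closeness to CCL22 depends on the 1 CPM added before the log: the fitted log2 changes were 8.30 for SCIMP, 8.33 for CCL8, 11.27 for SERPINB4 and 7.26 for MMP12, against 6.02 for CCL22, and 6.26 for IFIT1.

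Related genes were taken from lists drawn up from general knowledge, with earlier results of these data known. Of other genes known from mature, LAMP3-positive dendritic cells, 12 of 20 tested rose, 2 fell and 6 did not pass, with a median log2 change of 1.69 against -0.01 over all tested genes, of which 20.6% were called higher and 20.8% lower. The lists share genes: CD274 and PDCD1LG2 also stand among the T cell ligands below, BIRC3, TRAF1, NFKB2 and RELB among the CD40 genes, and MARCKSL1 among the actin-bundling genes. ALDH1A2, an enzyme of retinoic acid synthesis, rose by 4.11 (33.6 ± 0.525 FPKM in siMCT4 and 1.79 ± 0.172 in controls; adjusted p = 1.32e-07). The ubiquitin ligase gene BIRC3 rose by 3.88 (adjusted p = 7.01e-07) and IL4I1, a secreted amino acid oxidase, by 2.39 (adjusted p = 1.32e-07). IDO1, the tryptophan-degrading enzyme, had 28, 18 and 43 counts in siMCT4 libraries and 0 in the controls (adjusted p = 0.00295). With 3 counts set over the control group in place of 0, it was 28.2-fold higher.

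Against that direction, CST7, the protease inhibitor cystatin F, fell (-2.96, adjusted p = 0.000279). EBI3, a cytokine subunit of IL-27, was called lower (-0.61, adjusted p = 0.0308) but lost its call on leaving out any 1 of the 6 libraries (adjusted p 0.0521 to 0.112). RELB, an NF-kB subunit needed for dendritic cell maturation, was not called (adjusted p = 0.99), with 4.54 ± 0.643 FPKM in siMCT4 and 4.21 ± 0.155 in controls. With the GC correction RELB passed as higher (0.71, adjusted p = 0.00765), and its transcript has a GC content of 65.4%. MARCKSL1 was not called (-0.22, adjusted p = 0.147).

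**Figure D5:**
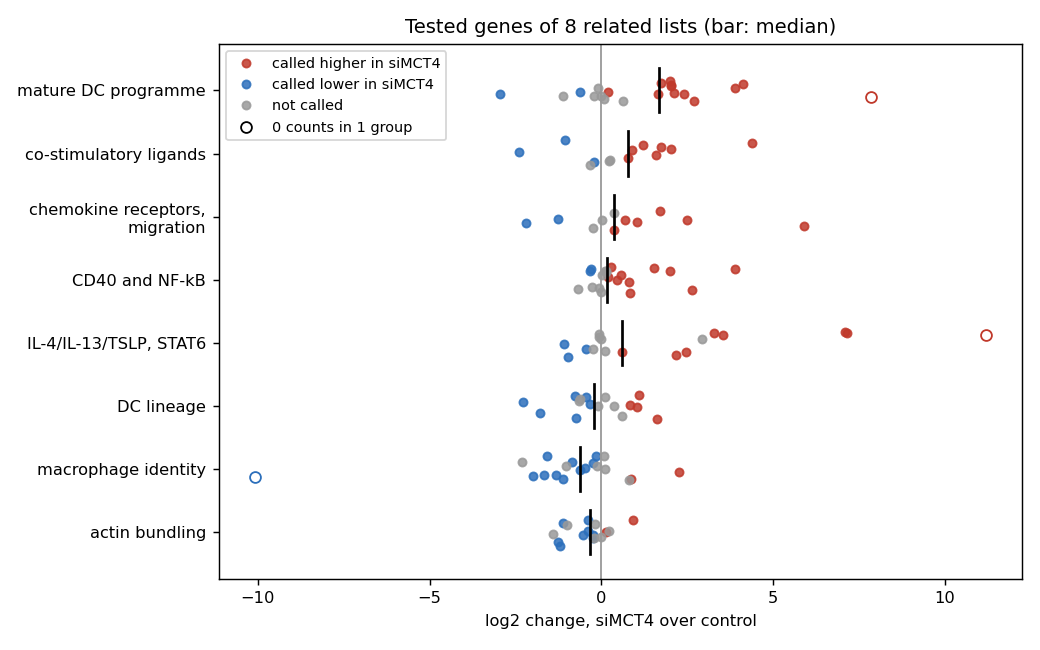
Log2 change (siMCT4 over control) of each tested gene in 8 related lists, with the median as a black bar. Red and blue are genes called higher and lower, grey is not called, and open circles are IDO1, CCL18 and MARCO, which had 0 counts in 1 group, so that their place depends on the prior count of the fit. The medians run from 1.69 in the mature dendritic cell list to -0.63 in the macrophage list.

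Among other ligands that T cells read, 7 of 13 tested rose and 3 fell (median 0.77), beside 20.6% of all tested genes called higher and 20.8% lower. The checkpoint ligands CD274 and PDCD1LG2, which bind PD-1, rose by 1.72 and 2.03 (adjusted p = 5.05e-06 and 3.06e-06), reaching 28.6 ± 1.77 and 12.0 ± 0.589 FPKM in siMCT4, against 8.03 ± 0.659 and 2.72 ± 0.158 FPKM in controls. CD276, a further B7 relative, rose by 1.59 (adjusted p = 2.2e-05). ICOSLG, the B7 ligand of ICOS, fell (-2.41, adjusted p = 5.14e-07), with 496, 534 and 545 counts in siMCT4 libraries 1, 2 and 3, against 2723, 2623 and 2628 in the controls. CD70, the ligand of CD27, was called lower (-1.06, adjusted p = 0.0149) but not called without control replicate 3 (-0.94, adjusted p = 0.0617). VSIR was called lower (-0.21, adjusted p = 0.0117), but its change was -0.01 (adjusted p = 0.869) with the GC correction and was not called without control replicate 1 or 2 or siMCT4 replicate 1 or 2 (adjusted p 0.0594 to 0.0736). TNFSF9 and TNFRSF14 were not called (0.24 and -0.33, adjusted p = 0.614 and 0.201), but TNFRSF14 passed as lower without siMCT4 replicate 3 (-0.57, adjusted p = 0.000266). VTCN1 had 4, 8 and 0 counts in siMCT4 libraries and 0 in the controls, too few to test.

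In the list of receptors and ligands of migration, 6 of 11 tested genes rose and 2 fell (median 0.38), beside 20.6% and 20.8% of all tested genes. The chemokine receptor genes CXCR4 and CCR1 rose by 1.71 and 0.70 (adjusted p = 3.94e-06 and 1.82e-05). CCR2, the receptor that brings monocytes out of the bone marrow, fell (-2.19, adjusted p = 1.72e-05), as did the fractalkine receptor CX3CR1 (-1.25, adjusted p = 0.00691). CCR4, the receptor of CCL17 and CCL22, had 0 counts in siMCT4 libraries, against 0, 8 and 6 in the controls, and was too low to test, as was S1PR1 with 6, 4 and 0 counts in siMCT4 libraries and 0 in the controls. DOCK8, needed for dendritic cell migration, was not called (0.03, adjusted p = 0.625), but passed as higher on TPM with limma (0.23, adjusted p = 0.0093). CCL21, a CCR7 ligand, was at 0.429 ± 0.16 FPKM in siMCT4 and 0.475 ± 0.0727 FPKM in controls (log2 change -0.25, adjusted p = 0.631), and CCL19 was not analysed here.

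Of the genes that carry the CD40 signal to NF-kB, 10 of 20 tested rose and 2 fell (median 0.17), beside 20.6% and 20.8% of all tested genes, with 0 lower on TPM. Beside BIRC3, TRAF5, an adaptor of the CD40 tail, rose by 2.64 (adjusted p = 1.22e-06), and NFKBIA, the inhibitor that NF-kB itself induces, by 1.54 (adjusted p = 3.66e-06). TRAF3, which restrains CD40 signalling, fell (-0.32, adjusted p = 0.00123), but not on TPM with limma (-0.12, adjusted p = 0.123). IKBKG was called lower (-0.30, adjusted p = 0.0252), but its change was 0.14 (adjusted p = 0.389) with the GC correction, and it was not called without control replicate 1 or 2 or siMCT4 replicate 1 or 2 (adjusted p 0.0702 to 0.116). CHUK and NFKBIE were not called (0.14 and 0.11, adjusted p = 0.0982 and 0.307), although CHUK passed as higher without control replicate 2 (0.21, adjusted p = 0.0378) and with limma on FPKM or TPM (0.23 to 0.34, adjusted p 0.00627 to 0.0235). NFKBIE passed as higher with the GC correction (0.42, adjusted p = 0.00208) and on TPM with limma (0.31, adjusted p = 0.0164).

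IL-4 and IL-13 act through STAT6, and both they and TSLP are known inducers of CCL17 and CCL22 in myeloid cells. In the list drawn up for these cytokines and STAT6, 8 of 17 tested genes rose and 3 fell (median 0.61), beside 20.6% and 20.8% of all tested genes. Not every gene of this list need respond through STAT6. The crosslinking enzyme gene TGM2 rose by 2.45 (adjusted p = 1.32e-07), the feedback inhibitor gene CISH by 3.29 (adjusted p = 7.31e-07) and the eotaxin gene CCL26 by 7.10 (adjusted p = 1.12e-06), with 462, 557 and 481 counts in siMCT4 libraries 1, 2 and 3, against 3, 4 and 3 in the controls. CCL18 had 317, 246 and 332 counts in siMCT4 libraries and 0 in the controls (adjusted p = 4.31e-05). With 3 counts set over the control group in place of 0, it was 283-fold higher. The eotaxin gene CCL24 fell (-0.97, adjusted p = 0.000434), as did the receptor chain IL13RA1 (-0.46, adjusted p = 0.00106) and TSLP (-1.10, adjusted p = 0.00272). STAT6 and TYK2 were not called (0.09 and -0.24, adjusted p = 0.331 and 0.0619). Without siMCT4 replicate 3, STAT6 passed as higher (0.20, adjusted p = 0.00135) and TYK2 as lower (-0.32, adjusted p = 0.000316). STAT6 also passed as higher with the GC correction (0.18, adjusted p = 0.0378) and on TPM with limma (0.29, adjusted p = 0.0169), and TYK2 as lower with DESeq2 (-0.22, adjusted p = 0.0441).

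Of the genes that define dendritic cells as a lineage, 4 of 16 tested rose, 6 fell and 6 did not pass (median -0.21), beside 20.6% of all tested genes called higher and 20.8% lower. On TPM 2 were lower. Their summed level was 1755 to 1839 CPM in siMCT4 libraries and 1847 to 1880 CPM in controls. Most of this sum was ITGAX, with a mean of 1614 CPM in siMCT4 and 1497 CPM in controls. The sum therefore says little about the other genes of the list. FLT3, the growth factor receptor of dendritic cell precursors, fell (-2.27, adjusted p = 8.42e-05), as did THBD (-1.78, adjusted p = 3.99e-05). The transcription factor gene IRF8 fell (-0.32, adjusted p = 0.00319), but not on TPM with limma (-0.11, adjusted p = 0.141). IL3RA and TCF4, known from plasmacytoid dendritic cells, rose by 0.83 and 1.03 (adjusted p = 0.000102 and 0.00221). CD1B (1.63, adjusted p = 0.014) and XCR1 (1.08, adjusted p = 0.0202) were called higher at levels under 1 FPKM, but CD1B was not called without control replicate 1 or siMCT4 replicate 1 (adjusted p = 0.0516 and 0.0531), nor XCR1 without control replicate 1 or 3 or siMCT4 replicate 1 (adjusted p 0.0581 to 0.0753). The subset markers CD207, CD1E and CLEC10A were at or near 0: CD207 had 4 counts over the siMCT4 group and 0 over the controls, CD1E 0 and 12, and CLEC10A 24 and 0. ITGAX, which encodes CD11c and is shared with macrophages, stood at 220.3 ± 8.89 FPKM in siMCT4 and 189.5 ± 3.92 FPKM in controls and was not called (0.11, adjusted p = 0.0713), but passed as higher without siMCT4 replicate 3 (0.16, adjusted p = 0.00165), with the GC correction (0.20, adjusted p = 0.00132) and with limma on FPKM or TPM (0.22 to 0.31, adjusted p 0.00208 to 0.013). CD1C was not called (0.60, adjusted p = 0.119), but passed as higher without siMCT4 replicate 3 (0.85, adjusted p = 0.0113).

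Macrophage and monocyte genes fell in 11 of 19 tested cases and rose in 2 (median -0.63), beside 20.8% and 20.6% of all tested genes, and on TPM 7 were lower and 4 higher. Their summed level was 3609 to 3795 CPM in siMCT4 libraries and 5038 to 5196 CPM in controls. CD68, a general macrophage marker, was high in both groups, at 432 ± 27.9 FPKM in siMCT4 and 381 ± 6.36 FPKM in controls (log2 change 0.07, adjusted p = 0.32). It is 1 marker of a list in which 11 of 19 tested genes fell, and does not by itself settle the cell type. CD68 passed as higher without siMCT4 replicate 3 (0.15, adjusted p = 0.00614), with the GC correction (0.14, adjusted p = 0.0184) and on TPM with limma (0.27, adjusted p = 0.00941). CSF1R, the receptor for macrophage colony-stimulating factor, fell (-0.87, adjusted p = 1.58e-05), as did the Fc receptor gene FCGR1A (-1.66, adjusted p = 1.24e-06) and the complement receptor gene VSIG4 (-1.32, adjusted p = 7.42e-06). The scavenger receptor gene MARCO had 0 counts in siMCT4 libraries, against 113, 170 and 112 in the controls. With 3 counts set over the siMCT4 group in place of 0, it was 139-fold lower. C1QB had 0, 20 and 0 counts in siMCT4 libraries and 0 in the controls, too few to test. SIGLEC1 and MERTK rose by 2.25 and 0.86 (adjusted p = 3.99e-06 and 1.24e-05). Of the lymphocyte markers, 6 of 11 were in the table, with a summed level of 35.9 to 47.7 CPM in siMCT4 and 76.8 to 96.4 CPM in controls. CD79A rose by 2.90 (adjusted p = 0.000143) and GNLY fell (-1.15, adjusted p = 0.000366), while CD79B and NKG7 were not called (0.83 and 0.10, adjusted p = 0.164 and 0.734). Their part in the members' differences was not tested.

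Of the other actin-bundling genes, 8 of 16 tested fell and 2 rose (median -0.32), beside 20.8% of all tested genes called lower and 20.6% higher, with 5 lower on TPM. MYO10, the motor of filopodia, fell (-1.11, adjusted p = 4.98e-06), as did CORO1A (-1.21, adjusted p = 1.42e-05) and ACTN4 (-0.53, adjusted p = 8.36e-05), while ENAH rose by 0.91 (adjusted p = 0.00154). ACTN1 (0.12, adjusted p = 0.0449) was called higher but lost its call on leaving out any 1 library other than siMCT4 replicate 3 (adjusted p 0.066 to 0.14). VASP and MARCKS were not called (-0.02 and -0.19, adjusted p = 0.854 and 0.39), but MARCKS passed as lower without siMCT4 replicate 3 (-0.40, adjusted p = 0.000553).

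Of 7 tested relatives of single members 1, CX3CL1, rose, 3 fell and 3 did not pass (median -0.34), beside 20.6% and 20.8% of all tested genes. Of these relatives CX3CL1, CD68, FSCN2 and FSCN3 are also in other lists above. Among the LAMP3 relatives, LAMP1 fell (-0.34, adjusted p = 0.0103), but not on TPM with limma (-0.14, adjusted p = 0.188), LAMP5 fell (-2.09, adjusted p = 0.000255) and LAMP2 was not called (-0.08, adjusted p = 0.141), but passed as lower with the GC correction (-0.16, adjusted p = 0.0182). FSCN3, at under 0.2 FPKM, was called lower (-1.27, adjusted p = 0.0471) but lost its call on leaving out any 1 of the 6 libraries (adjusted p 0.0733 to 0.16).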

How the data were processed

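Per the labels, polyadenylated RNA of 6 libraries was sequenced as paired ends after a dUTP preparation that marks strand. The submitters' processing notes name cutadapt 1.9, HISAT2 2.2.1 and GRCh38. Tool, annotation and strand setting of the counting step: not given in the sources used here. The deposited table gives raw counts and, by the authors, FPKM (fragments per kilobase, scaled to library size) for 35009 genes, and 0 value columns went unused. Between 58.7% and 60.9% of low counts were even numbers, so 2 counts may stand for 1 fragment. The intervals, and the folds with 3 counts set over a group, take each count as 1 fragment. Should 2 counts stand for 1 fragment, the intervals are too narrow and those folds too large. Both also leave out the spread between libraries.

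Counts were tested with edgeR 4.0.16 (R 4.3.3): TMM scaling, filterByExpr with a smallest count of 10 and total of 15 (19944 genes kept, all 10 members among them), quasi-likelihood test, two-sided, group as the sole term, Benjamini-Hochberg adjustment over all genes. SE is the log2 change over the square root of F. CPM and FPKM errors are SD over 3 libraries. The common coefficient of variation was 0.219. Library pairs all differed by more than counting noise. The mean chi-square per gene was 54.6 and 63.1 between siMCT4 library 3 and libraries 1 and 2. It was 9.21 between siMCT4 libraries 1 and 2, and 12.6 to 17.7 between controls. Without siMCT4 library 3, 4894 genes were called higher and 4814 lower. Alternatives were DESeq2 1.42.0, no filter, limma 3.58.1 on log2 FPKM or TPM (pseudocount 1 or 0.1, mean FPKM of at least 0.1), a per-library GC correction (GENCODE v29 transcripts, 96.8% of tested genes), a replicate block and leaving out each library. The steps were tested on simulated data. Members and lists were chosen with earlier results of these data known. Genes named are the members, SLC16A3, up to 3 called genes in each direction, genes with 0 counts in a group and up to 2 uncalled genes per list, all called genes where 5 or fewer, the chromosome 16 neighbours and the 5 profiles nearest to CCL22. List genes without a row (CCL19, CD200, IL12B, CLEC9A, FCER1A, CLEC4C, IL4, JAK3, CD40LG, CCR6, CD3D, CD3E, CD3G, CD2 and MS4A1) were not analysed here.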

Additional observations from a re-analysis of the deposited data

How the results depend on the processing

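The direction of the 8 called members held under all 13 alternative settings, with CCL22 at 6.01 to 6.21, CCR7 at 3.48 to 4.42, CD86 at 3.20 to 4.0, CD209 at 2.27 to 2.45, CD83 at 1.28 to 1.5, CD40 at 1.16 to 1.42, LAMP3 at 0.54 to 1.85 and FSCN1 at -1.83 to -0.73. CCL17 ran from -0.38 to 0.98. Genes called higher and lower among all genes stayed within 1.5 times the edgeR counts of 4116 and 4144 in each setting, and the replicate block gave 3341 and 3580. The numbers of the libraries showed no sign of pairing: same-numbered libraries correlated at -0.0864, 0.0792 and -0.148 in their deviations from the group mean, and not every library correlated best with its own number. Deviations within so small a group depend on one another, so this check cannot show that pairing was absent. Counts of genes lower in the mature dendritic cell list (2) were 1 with no filter, the GC correction and the replicate block, and 1 on leaving out any 1 of the 6 libraries. In the dendritic cell lineage list, 2 genes were lower on TPM (6 in the edgeR fit), and 2 to 6 were higher (4 in the edgeR fit) on leaving out a library. Macrophage genes were lower in 7 cases with limma on FPKM (either pseudocount) and TPM, and higher in 4 on TPM. CD40 and NF-kB genes were lower in 1 case with no filter, limma on FPKM (either pseudocount), the GC correction and the replicate block, in 0 on TPM and in 1 to 3 on leaving out a library. Actin-bundling genes were higher in 1 case with no filter and the replicate block and in 1 to 3 on leaving out a library, and lower in 5 on TPM. Relatives of single members were higher in 2 cases on TPM and with the GC correction, in 1 to 2 on leaving out a library, and lower in 1 with limma on FPKM (either pseudocount) and TPM. Lymphocyte genes were higher in 2 cases with DESeq2 and in 1 to 2 on leaving out a library. With 5 neighbours a side, 1 gene was lower, against 0 with 3. IKBKG (0.14) and RELB (0.71) changed sign with the GC correction. The causes were not tested. CCL17, CD80 and CCR4 rest on at most 61 counts per library. For CCL17 the ratio of 1.15 had an interval of 0.645 to 2.06, which covers counting error only. The interval leaves out the spread between libraries, and the log2 change of CCL17 had an SE of 1.03. It therefore does not give the smallest difference that could have been detected.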
